A study of Mus musculus with 8 samples.

Results

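The Zbtb genes encode zinc-finger transcription factors with an N-terminal BTB domain, and their transcripts were followed across 8 RNA sequencing libraries of mouse bone marrow-derived macrophages (BMDMs). The members were chosen by gene symbol: a name made of Zbtb, a number and optional letters, with names ending in os left out. This gave 40 of the 24539 gene symbols in the count table. Zbtb6 and Zbtb26 were singled out in the choice with results of these data already known, so their values are described here without a test. The other members carry an adjusted p taken over all tested genes. BMDMs came from the femurs and tibias of C57BL/6 males of 7 weeks, wild-type or Tut7-/-. The Tut7-/- mice were made with CRISPR/Cas9 and lack TUT7, a terminal uridyltransferase that adds uridines to the 3′ ends of RNA, in all tissues. All marrow cells were grown for 7 days in medium with 20% L929 cell-conditioned medium and then overnight with 10 ng/ml M-CSF, the macrophage growth factor. Each genotype was left untreated or given lipopolysaccharide (LPS), the bacterial ligand of TLR4, for 4 h, with 2 libraries in each of the 4 groups. Nothing in the labels tells if replicate libraries stem from different mice or cultures. The p-values therefore cover the spread among these 8 libraries alone, part or all of it possibly technical.

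ZBTB proteins bind DNA through C-terminal zinc fingers, while the BTB domain forms dimers and recruits corepressor complexes that hold NCOR or BCOR and histone deacetylases. Most of the described members act as repressors. The family is best known in blood cells for lineage decisions: ThPOK (Zbtb7b), LRF (Zbtb7a), PLZF (Zbtb16), PLZP (Zbtb32) and MIZ-1 (Zbtb17) act in lymphocytes, ZBTB46 marks classical dendritic cells, and ZBTB20 has been described in TLR signalling in macrophages. A branch with Kaiso (Zbtb33), Zbtb4 and Zbtb38 binds methylated CpG.

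The transcripts of the family spanned a wide range of base composition. GC content of the matched transcript ran from 36.9% for Zbtb41 to 62.2% for Zbtb45, with a median of 50.8% over the 36 tested members beside 50.2% over all tested genes. The start of the coding sequence shows the contrast. The first 120 bases from the start codon are printed for Zbtb26 and Zbtb6, which had the lowest levels in untreated Tut7-/- cells relative to wild-type, and for Zbtb7b and Zbtb45, which were higher there, with each G and C in capitals. All 4 stretches lie in 1 coding exon on the minus strand of GRCm38 (mm10). They are at chr2:37436870-37436989 for Zbtb26, chr2:37429795-37429914 for Zbtb6, chr3:89381390-89381509 for Zbtb7b and chr7:13008210-13008329 for Zbtb45.
Zbtb26: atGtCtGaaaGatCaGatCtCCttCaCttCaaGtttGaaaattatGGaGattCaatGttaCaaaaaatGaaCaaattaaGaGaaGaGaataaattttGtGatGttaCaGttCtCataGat
Zbtb6: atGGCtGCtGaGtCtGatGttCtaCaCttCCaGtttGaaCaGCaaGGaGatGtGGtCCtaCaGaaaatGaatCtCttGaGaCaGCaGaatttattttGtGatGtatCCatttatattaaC
Zbtb7b: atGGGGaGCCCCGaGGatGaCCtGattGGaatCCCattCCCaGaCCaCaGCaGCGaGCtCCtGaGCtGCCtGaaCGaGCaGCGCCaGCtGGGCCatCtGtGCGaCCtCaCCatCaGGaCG
Zbtb45: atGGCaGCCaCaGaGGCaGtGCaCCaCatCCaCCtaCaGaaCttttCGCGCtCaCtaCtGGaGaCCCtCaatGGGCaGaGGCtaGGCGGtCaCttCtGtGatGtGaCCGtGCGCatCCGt
G and C made up 34 of the 120 bases in Zbtb26 and 45 in Zbtb6, against 75 in Zbtb7b and 69 in Zbtb45. Over the whole coding sequence GC content was 42.6% in Zbtb26, 40.1% in Zbtb6, 61.0% in Zbtb7b and 63.3% in Zbtb45, and over the 3′ UTR it was 35.8%, 35.5%, 57.8% and 55.9%. The low GC content of Zbtb6 and Zbtb26 thus held in both parts of the transcript, and their 3′ UTRs of 3143 and 3499 bases were longer than their coding parts of 1272 and 1323 bases.

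Zbtb6 and Zbtb26 are neighbours on chromosome 2, both on the minus strand, from 37425500 to 37430919 and from 37432168 to 37443172 (RefSeq, GRCm38.p6). The RefSeq spans do not overlap, while GENCODE vM21 annotates exons shared by both genes on the same strand, so reads in such exons could count for either. Their promoters, from 250 bases before to 50 after the RefSeq start, are shown because the genes lie in tandem and both had their lowest levels in untreated Tut7-/- cells, with each CpG in capitals. They lie at chr2:37430870-37431169 for Zbtb6 and chr2:37443123-37443422 for Zbtb26, on the minus strand.
Zbtb6 promoter: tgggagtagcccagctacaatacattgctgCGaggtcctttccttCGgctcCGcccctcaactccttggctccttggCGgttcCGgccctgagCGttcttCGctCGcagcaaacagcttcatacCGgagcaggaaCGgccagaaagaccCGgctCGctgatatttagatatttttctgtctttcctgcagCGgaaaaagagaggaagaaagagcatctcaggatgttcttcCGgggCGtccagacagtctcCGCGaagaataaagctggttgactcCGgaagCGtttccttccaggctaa
Zbtb26 promoter: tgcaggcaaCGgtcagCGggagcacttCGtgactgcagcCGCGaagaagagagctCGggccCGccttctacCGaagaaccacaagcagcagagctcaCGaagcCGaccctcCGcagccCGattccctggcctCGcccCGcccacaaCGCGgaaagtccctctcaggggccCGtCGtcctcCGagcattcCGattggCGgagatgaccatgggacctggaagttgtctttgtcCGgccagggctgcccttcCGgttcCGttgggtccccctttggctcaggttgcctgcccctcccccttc
The windows held 19 and 24 CpGs and had GC contents of 54.3% and 65.3%, above those of the transcripts they start. Among the members, 35 had at least 1 of 48 promoter windows, with a median GC content of 64.3% and a median of 25 CpGs, beside 52.7% and 7 CpGs over all 32851 windows. Known motifs were looked for on both strands. The NF-kappaB motif was in 4 of the 48 windows, those of Zbtb4, Zbtb21, Zbtb26 and Zbtb41, and in 4.51% of all windows. The interferon-stimulated response element core, 2 GAAA blocks a pair of bases apart, was in 2 windows, both of Zbtb18 (3.44% of all), and the AP-1 site TGACTCA in 1, of Zbtb46 (5.2%). The E-box CACGTG was in 6 windows (7.15%) and the cyclic AMP element TGACGTCA in 2, of Zbtb11 and Zbtb21 (1.79%). These matches describe letters, not bound sites.

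The libraries held 3767900 to 9394632 counts. Tut7, listed under its older symbol Zcchc6, had 427 to 1162 counts in the wild-type and 17 to 23 in the Tut7-/- libraries. All 8 macrophage markers (among them Adgre1, Csf1r, Cd68 and Lyz2) were expressed, with a summed level of 15409 to 39041 CPM (counts scaled to library size after TMM normalization). The sum was 39041 and 26988 CPM in untreated Tut7-/- and 20449 and 20121 CPM in untreated wild-type libraries, and its part in that comparison was not tested. Most of the sum was Lyz2, at 28241 and 17327 against 13945 and 12059 CPM. The markers did not move as 1 group: Mrc1 was lower, at 54.6 and 75.3 against 233 and 151 CPM. Itgam was similar, at 497 and 735 against 503 and 730 CPM. The T cell receptor genes Cd3d, Cd3g and Trac, the B cell factor Pax5 and the neutrophil genes Ly6g, Mpo and Elane had no counts in any library. The T and NKT cell list summed to 11.6 to 30.9 CPM (mostly Cd4 and Lck), the dendritic cell list to 1.47 to 24.6 CPM, highest after LPS, and the B cell, neutrophil and erythroid lists to at most 4.42 CPM. The fibroblast and stroma markers, all 8 with counts, summed to 65.9 to 102 CPM in the wild-type and 22.1 to 24.4 CPM in the Tut7-/- libraries, and their part in the genotype comparisons was not tested. Untreated, Col1a1, Col1a2, Acta2 and Postn were lower in Tut7-/- libraries, and Dcn and Lum were near 0. Pdgfrb was similar, at 1.47 and 1.24 against 1.54 and 1.49 CPM in wild-type, and so was Col3a1, at 0.737 and 1.33 against 0.66 and 1.4 CPM. The 2 untreated Tut7-/- libraries stood apart from the other 6 by base composition. In them the tested genes with the lowest GC content (32.8% to 45.3%, 2858 genes) lay at a median of -1.141 and -0.813 on the log2 scale relative to each gene's mean over all libraries, and the 2858 genes with the highest GC content (54.9% to 71.6%) at 0.826 and 0.510. In the other 6 libraries the genes of low GC content lay between -0.074 and 0.579. Across the 36 tested members the correlation of this deviation with GC content was 0.70 and 0.53 in the untreated Tut7-/- libraries and -0.38 to -0.15 in the others. Points of these correlations share a library, and the 36 include Zbtb6 and Zbtb26. Over all tested genes the correlation was 0.54 and 0.47 in the untreated Tut7-/- libraries and 0.00 and 0.10 in the untreated wild-type libraries. It was -0.37 to -0.24 in the LPS-treated libraries of both genotypes. Replicate 1 of the untreated Tut7-/- group also showed a trend with transcript length. There the 2875 longest genes lay at -0.877 and the 2876 shortest at 0.582, against -0.196 and 0.097 in replicate 2.

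Levels within the family were compared per transcript length, as RPKM (reads scaled to transcript length and library depth), in untreated wild-type cells. Of the 40 members, 32 were above 1 RPKM and 5 above 10 RPKM. Zbtb7b, the CD4 T cell lineage factor ThPOK, led with 32.7 and 45 RPKM, followed by Zbtb7a, the LRF factor of B cell and erythroid development, with 21.8 and 29.9 RPKM. Zbtb22 had 17.8 and 21.5 RPKM, Zbtb45 had 11.5 and 11.9 RPKM, and Zbtb4, a methyl-CpG binder, had 8.8 and 14.5 RPKM. The 2 libraries of Zbtb7b lay above both of Zbtb7a, which lay above both of Zbtb22, while Zbtb45 and Zbtb4 overlapped. Zbtb6 had a mean of 4.76 RPKM and Zbtb26 of 1.55 RPKM. At the other end, Zbtb8b had no counts in any library, Zbtb7c had 5 counts in the Tut7-/- libraries only, 1 untreated and 4 after LPS, Zbtb46 had 0 to 5 counts and Zbtb20 had 1 to 11 counts per library. These 4 did not pass the filter on low counts and were not tested, which leaves 36. Zbtb16 and Zbtb32 passed it through the groups where they were high. Reads of Zbtb22, Zbtb9, Zbtb21 and Zbtb20 may be shared with the overlapping genes Tapbp, Ggnbp1, C2cd2 and Mir568 on the same strand. Genes on the opposite strand overlap several others, among them Zbtb7b (Gm15417), Zbtb8a (Zbtb8os), Zbtb11 (Zbtb11os1 and Pcnp), Zbtb17 (Spen), Zbtb33 (Tmem255a) and Zbtb37 (Serpinc1), and whether counting used strand was not given in the sources used here.

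**Figure D1:**
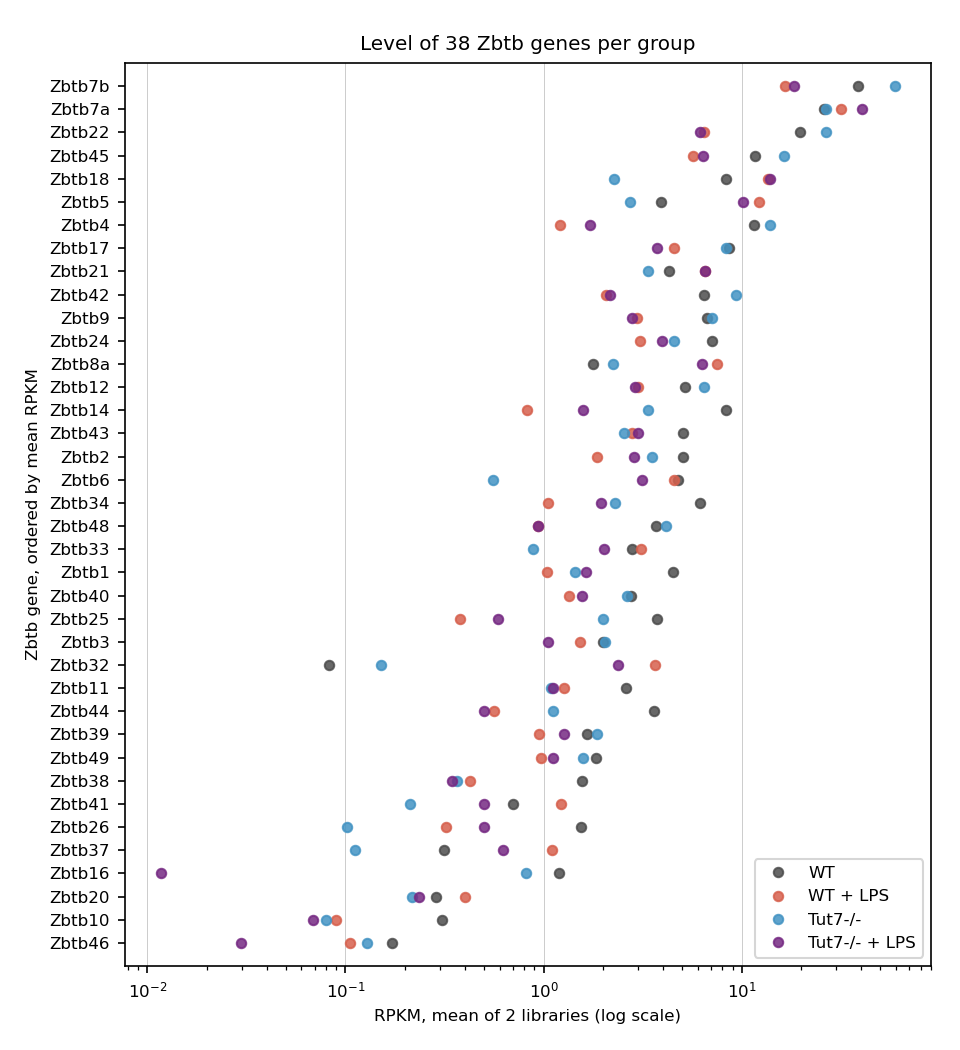
Level of 38 Zbtb genes in RPKM on a log axis, each point the mean of the 2 libraries of a group, genes ordered by their mean over all 8 libraries. Zbtb7b and Zbtb7a stand at the top, Zbtb46 at the bottom, and a group at 0 (Zbtb16 in LPS-treated wild-type) has no point.

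**Figure D2:**
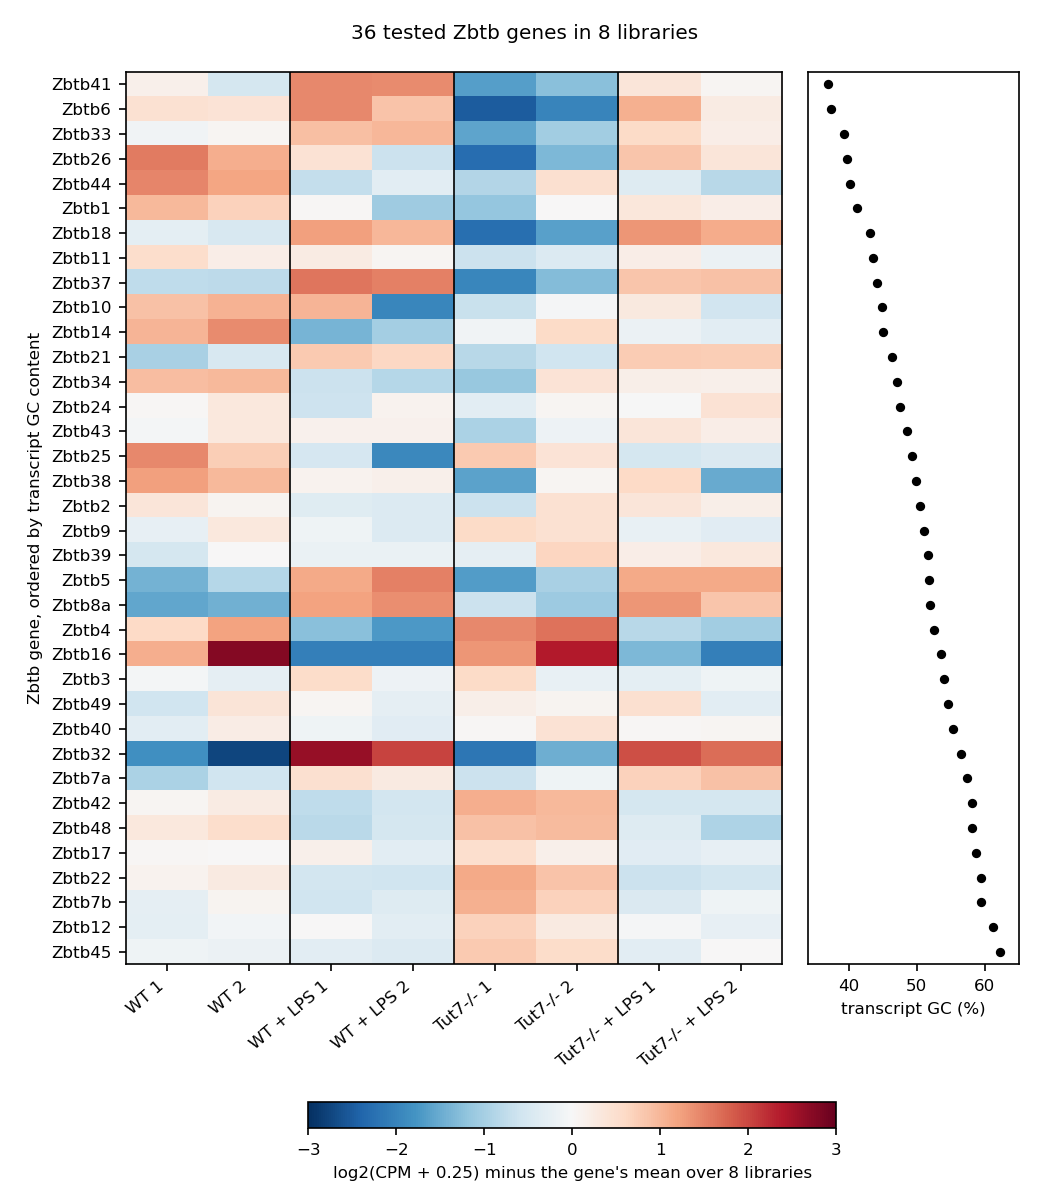
Heat map of the 36 tested Zbtb genes in 8 libraries, as log2(CPM + 0.25) minus the gene's mean over the libraries, with the genes ordered by transcript GC content (right panel). The 2 untreated Tut7-/- columns run mostly from blue at the AT-rich top to red at the GC-rich bottom, with Zbtb32 and Zbtb7a among the exceptions.

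Zbtb6 and Zbtb26 are BTB zinc-finger proteins with few described functions. Zbtb6 was at 16 and 15.3 CPM in untreated wild-type BMDMs, 31.8 and 21 CPM in LPS-treated wild-type, 1.84 and 2.75 CPM in untreated Tut7-/- and 24.2 and 13.6 CPM in LPS-treated Tut7-/- BMDMs. Zbtb26 was at 6.93 and 4.91 CPM, 3.05 and 1.31 CPM, 0.246 and 0.709 CPM, and 4.11 and 2.88 CPM in the same order. Both genes were lowest in the 2 untreated Tut7-/- libraries, which overlapped no other group for either gene. In these bulk libraries fewer cells that express a gene and less RNA per cell cannot be told apart. The Zbtb26 values there rest on 2 and 8 counts. The fitted log2 difference of untreated Tut7-/- from wild-type BMDMs was -2.73 ± 0.365 (standard error, 2 libraries per group) for Zbtb6 and -3.49 ± 0.529 for Zbtb26. For comparison, the 164 tested genes within 1 percentage point of the GC content of Zbtb6 had a median of -1.23, and the 493 around that of Zbtb26 a median of -1.22. With per-library offsets for transcript length and GC content the differences were -1.56 ± 0.28 and -2.29 ± 0.479, and with offsets for GC content alone -1.63 ± 0.311 and -2.40 ± 0.478.

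After LPS the levels of the genotypes overlapped for both genes. Zbtb6 differed by -0.50 ± 0.318 on the log2 scale and Zbtb26 by 0.59 ± 0.53 in Tut7-/- relative to wild-type BMDMs given LPS. With LPS, Zbtb26 fell in both wild-type libraries (log2 change -1.35 ± 0.492) and rose in both Tut7-/- libraries (2.74 ± 0.572). Zbtb6 was higher after LPS in both genotypes, by 0.77 ± 0.315 in wild-type and 3.0 ± 0.368 in Tut7-/- BMDMs. With the length and GC offsets these changes were -2.17 and 0.95 for Zbtb26 and 0.02 and 1.34 for Zbtb6, in wild-type and Tut7-/- cells. The LPS responses of the genotypes share no library, but both use the same cells as the genotype comparisons, so the 4 differences are not independent.

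**Figure D3:**
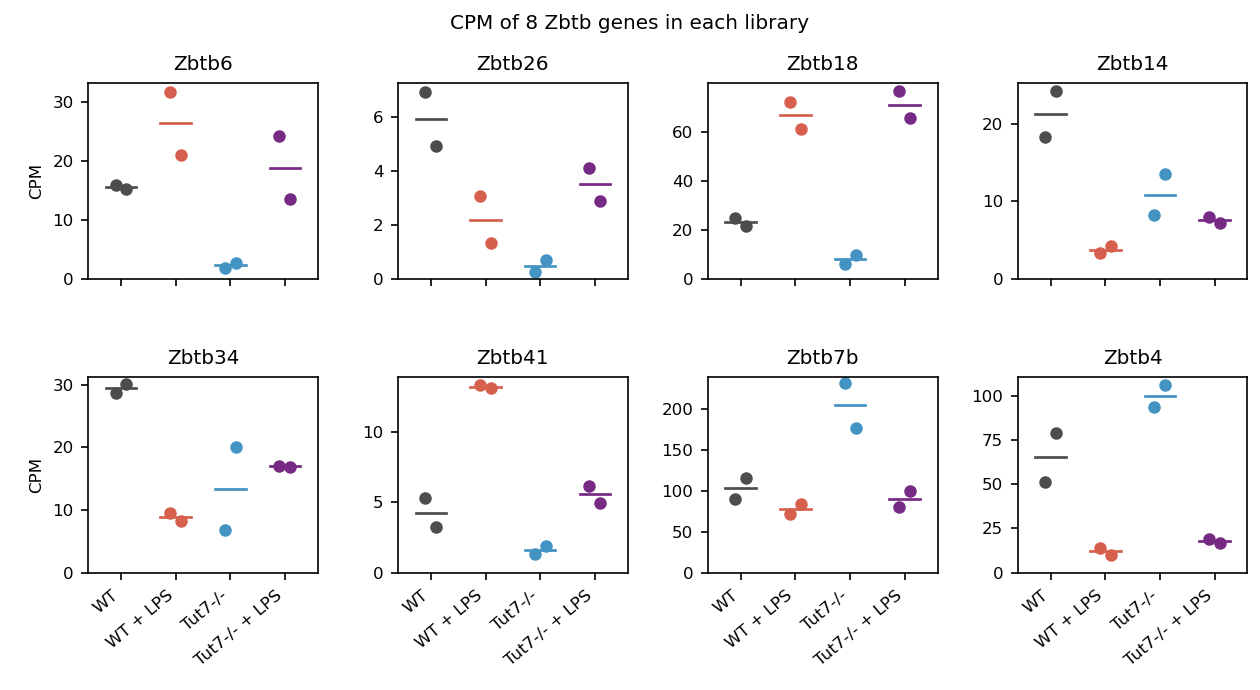
CPM of 8 Zbtb genes in each library, points for the 2 libraries of a group and a line at their mean, on axes that start at 0. Zbtb6 and Zbtb26 are lowest in the untreated Tut7-/- libraries, while Zbtb7b and Zbtb4 are highest there.

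Of the 34 other tested members, 9 were lower and 4 higher in untreated Tut7-/- than in wild-type BMDMs by edgeR's quasi-likelihood test. A call required a Benjamini-Hochberg adjusted p under 0.05. Over all tested genes 22.2% were lower and 14.8% higher, so the family's shares of 26.5% and 11.8% lay near the background. The median log2 difference of the 34 was -0.08 beside 0.01 over all genes. The 9 lower members had GC contents of 36.9% to 49.8% and the 4 higher ones of 58.2% to 62.2%, on either side of the median of all tested genes. Over all genes 93.8% of the lower and 6.06% of the higher calls lay below that median. Across the 36 tested members the log2 difference correlated with GC content at 0.86 and with log2 transcript length at -0.45, beside 0.63 and -0.31 over all genes. The 36 include Zbtb6 and Zbtb26, which were singled out with results known, and correlations over the other 34 were not computed. GC content and length were themselves correlated among the members at -0.52.

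Among the lower members, Zbtb18 (RP58, a repressor of neuronal and muscle development) went from 24.8 and 21.6 CPM in wild-type to 6.15 and 9.65 CPM in Tut7-/- BMDMs, a log2 difference of -1.53 ± 0.265 (adjusted p = 0.00099, edgeR). Kaiso, Zbtb33, went from 9.35 and 10.5 to 3.2 and 4.78 CPM (-1.30 ± 0.304, adjusted p = 0.0055). Zbtb44 went from 25.6 and 20.8 to 4.79 and 12.8 CPM (-1.37 ± 0.363, adjusted p = 0.01). The groups did not overlap for any of these 3 genes. Zbtb41 went from 5.28 and 3.24 to 1.35 and 1.86 CPM (-1.36 ± 0.392, adjusted p = 0.015), and Zbtb1, a factor of lymphoid development, from 14.2 and 11.7 to 3.07 and 7.17 CPM (-1.30 ± 0.38, adjusted p = 0.016). The GC content used for Zbtb1, 41.2%, is that of a transcript of 12190 nt, while the deposited values imply a length of 3987 nt. Zbtb14, a repressor of Myc, went from 18.3 and 24.2 to 8.24 and 13.5 CPM (-0.96 ± 0.293, adjusted p = 0.02). Zbtb34 went from 28.7 and 30.1 to 6.76 and 20 CPM (-1.11 ± 0.357, adjusted p = 0.026). Zbtb11, needed for neutrophil development in zebrafish, went from 10.6 and 8.33 to 4.55 and 5.4 CPM (-0.91 ± 0.304, adjusted p = 0.03). In all of these the 2 Tut7-/- libraries lay below both wild-type libraries, with replicate 1 the lower. The share of all genes without overlap was not computed, so this describes the values of called members only. Zbtb38, the third methyl-CpG binder, went from 5.06 and 4.21 to 0.492 and 2.13 CPM (-1.72 ± 0.592, adjusted p = 0.034), although genes of its GC content (49.8%) had a median difference of 0.00. Its lower value rests on 4 counts.

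The 4 higher members were GC-rich. Zbtb7b went from 90.2 and 116 CPM in wild-type to 231 and 176 CPM in Tut7-/- BMDMs, a log2 difference of 0.98 ± 0.224 (adjusted p = 0.0048, edgeR). Zbtb42, known from skeletal muscle, went from 15.2 and 17.4 to 31.3 and 28.8 CPM (0.88 ± 0.24, adjusted p = 0.012). Zbtb22 went from 34.7 and 39.1 to 71 and 58.3 CPM (0.81 ± 0.222, adjusted p = 0.012), and Zbtb45 from 18.4 and 17.8 to 35 and 29.8 CPM (0.84 ± 0.242, adjusted p = 0.015). The groups did not overlap for any of the 4. The share of all genes without overlap was not computed here either, so this describes the values of called members only. The genes within 1 percentage point of GC of these members had medians of 0.61 to 0.67.

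With offsets for length and GC content, 2 of the 34 were lower (Zbtb18 at -0.56 and Zbtb38 at -1.59) and 3 higher (Zbtb7b at 0.54, Zbtb4 at 0.83 and Zbtb21 at 0.85), where 9.63% of all genes were lower and 13.2% higher. Zbtb41, Zbtb44 and Zbtb11, lower without the offsets, then had differences of 0.05, 0.05 and 0.14. With offsets for GC content alone, 0 of the 34 passed in either direction, with 5 at an unadjusted p under 0.05 in edgeR, where 5.34% of all genes were lower and 5.5% higher. With offsets for length alone 6 were lower and 10 higher, where 20.2% of all genes were lower and 26.7% higher. Over the 36 tested members the correlation of the differences with GC content went from 0.86 to 0.46 with both offsets. It was 0.51 with offsets for GC content alone, so over the 36 a trend remained after correction. The 36 include Zbtb6 and Zbtb26. A correlation over the other 34 was not computed, so a remaining trend among those is not shown. The untreated Tut7-/- group consists of the 2 libraries with the strongest GC trend, so genotype and what else set those libraries apart cannot be told apart. The counts also depended on single libraries: without untreated wild-type replicate 1 the calls were 3 lower and 0 higher (11.1% and 3.31% of all genes), and without untreated Tut7-/- replicate 1 they were 3 lower and 7 higher (17.9% and 7.79% of all genes).

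**Figure D4:**
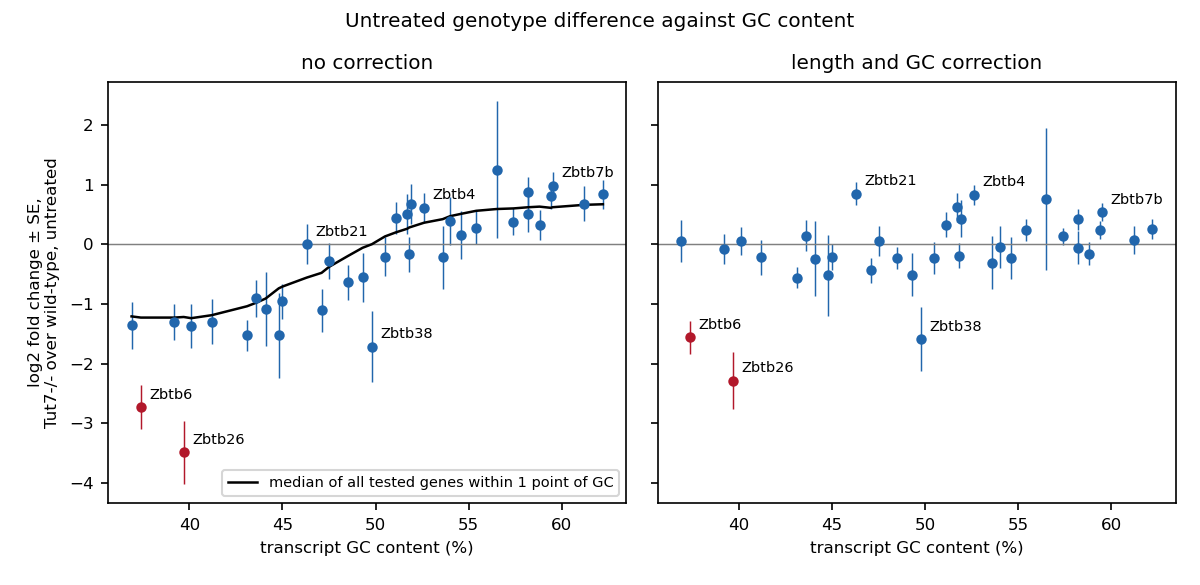
Log2 difference of untreated Tut7-/- from wild-type BMDMs (± standard error) against transcript GC content for the 36 tested members, without (left) and with (right) offsets for length and GC content. Zbtb6 and Zbtb26 are in red, and the black line is the median of all tested genes within 1 percentage point of GC, which most members follow on the left.

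After LPS, 0 of the 34 members differed between Tut7-/- and wild-type BMDMs in edgeR, where 0.626% of all genes were higher and 0.774% lower. DESeq2's Wald test also gave 0, and 2 members were higher and 1 lower at an unadjusted p under 0.05 in edgeR. The median log2 difference was 0.07 beside 0.10 over all genes. Of the members called lower without LPS, Zbtb18 was at 72.2 and 61 CPM in wild-type and 76.4 and 65.6 CPM in Tut7-/- BMDMs, and Zbtb11 at 8.7 and 7.54 and at 8.38 and 6.45 CPM. The genotypes overlapped for both genes. Zbtb33 was at 19.1 and 20.3 CPM in wild-type and at 15 and 11.5 CPM in Tut7-/- cells, and Zbtb14 at 3.26 and 4.26 and at 7.91 and 7.14 CPM. Zbtb41 was at 13.3 and 13.1 CPM in wild-type and at 6.17 and 4.94 CPM in Tut7-/- cells, and Zbtb34 at 9.57 and 8.19 and at 17.1 and 16.9 CPM. Zbtb1 was at 7.4 and 3.28 CPM in wild-type and at 9.17 and 8.24 CPM in Tut7-/- cells. Zbtb33, Zbtb14, Zbtb41, Zbtb34 and Zbtb1 did not overlap between genotypes after LPS, while Zbtb44 and Zbtb38 did. The share of all genes without overlap was not computed, so this describes the values only. With only the 4 LPS-treated libraries in the fit, Zbtb33 (-0.66, adjusted p = 0.035, edgeR) and Zbtb41 (-1.34, adjusted p = 0.00061) passed as lower. Zbtb34 (0.83, adjusted p = 0.015) and Zbtb7a (0.31, adjusted p = 0.047) passed as higher in that fit. Of all genes, 9.56% were lower and 5.35% higher there. When the 2 untreated Tut7-/- libraries were left out of the fit, Zbtb41 again passed as lower (-1.34) and Zbtb34 as higher (0.83). Of all genes, 4.26% were lower and 1.97% higher in that setting.

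LPS raised 9 and lowered 10 of the 34 members in wild-type BMDMs and raised 10 and lowered 10 in Tut7-/- BMDMs (edgeR, adjusted p under 0.05). Over all genes 27.0% rose and 30.4% fell in wild-type and 34.8% rose and 33.2% fell in Tut7-/- cells, so the members' shares were close to those of all genes. These counts include Zbtb32 and Zbtb16, which were near 0 counts in 1 condition and entered the tested set through the other. Without them 8 of 32 rose and 9 fell in wild-type and 9 rose and 9 fell in Tut7-/- cells. The median log2 change of the 34 was -0.21 in wild-type and 0.12 in Tut7-/- BMDMs, beside -0.17 and -0.07 over all genes, and was the same with Zbtb16 at its bound. In both genotypes 15 of the 34 members (44.1%) were called, 9 higher and 6 lower in both, where 48.4% of all genes were called in both and 99.4% of those had the same direction in both. Without Zbtb16 and Zbtb32, 13 of 32 (40.6%) were called in both, 8 higher and 5 lower. The 2 contrasts share no library. Over all genes the LPS change correlated with GC content at -0.22 in wild-type and -0.42 in Tut7-/- cells. Across the 36 tested members, Zbtb6 and Zbtb26 included, the values were -0.02 and -0.47. Of all genes that rose in wild-type cells 65% lay below the median GC content, and of those that fell 36.4%. The part of GC content in the LPS calls was not tested beyond the offsets. Scaling by library size alone, which moved the median of all genes to -1.0 in wild-type and -0.63 in Tut7-/- cells, gave 5 higher and 21 lower in wild-type cells, and 8 higher and 15 lower in Tut7-/- cells.

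Zbtb32 (PLZP, a repressor induced in activated lymphocytes) had 2 and 0 counts in untreated and 46 and 20 counts in LPS-treated wild-type libraries. This is a ratio of 88.4 with an exact 95% counting interval of 23.5 to 745, and the interval covers counting error only. In Tut7-/- BMDMs it went from 1 and 4 to 39 and 37 counts. The gene entered the tested set through the LPS-treated libraries, so these values are a description. Zbtb8a went from 2.75 and 2.98 CPM to 20 and 22.9 CPM in wild-type (2.89 ± 0.326, adjusted p = 2e-06) and from 5.41 and 3.9 to 21.8 and 15.4 CPM in Tut7-/- cells (2.01 ± 0.305, adjusted p = 3.3e-05). The libraries with and without LPS did not overlap for either gene. Zbtb37 went from 0.88 and 0.877 to 5.66 and 5.24 CPM in wild-type (2.62 ± 0.476, adjusted p = 0.00024) and from 0.246 and 0.531 to 3.16 and 3.29 CPM in Tut7-/- cells (2.94 ± 0.541, adjusted p = 0.0002). Zbtb5, a repressor of the cell cycle inhibitor p21, went from 9.79 and 14.5 to 58.3 and 76.4 CPM in wild-type (2.46 ± 0.292, adjusted p = 3.4e-06) and from 8.11 and 13.4 to 58.7 and 58.5 CPM in Tut7-/- cells (2.43 ± 0.291, adjusted p = 2.8e-06). Zbtb41 rose from 5.28 and 3.24 to 13.3 and 13.1 CPM in wild-type (1.64 ± 0.347, adjusted p = 0.00089) and from 1.35 and 1.86 to 6.17 and 4.94 CPM in Tut7-/- cells (1.75 ± 0.395, adjusted p = 0.0011). Its change in Tut7-/- cells was -0.14 with the length and GC offsets, while those of Zbtb8a and Zbtb5 passed under all alternatives in both genotypes, and that of Zbtb37 under all that tested it (at least 10 counts in every library left it out).

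Zbtb18 rose from 24.8 and 21.6 to 72.2 and 61 CPM in wild-type (1.53 ± 0.252, adjusted p = 9.8e-05) and from 6.15 and 9.65 to 76.4 and 65.6 CPM in Tut7-/- BMDMs (3.15 ± 0.271, adjusted p = 7.1e-08). Zbtb7a rose from 87.7 and 112 to 236 and 203 CPM in wild-type (1.13 ± 0.232, adjusted p = 0.00068) and from 107 and 154 to 271 and 309 CPM in Tut7-/- cells (1.15 ± 0.231, adjusted p = 0.00043). The treated libraries lay above all untreated ones for both genes. Kaiso, Zbtb33, rose by 0.98 ± 0.289 in wild-type (adjusted p = 0.009) and by 1.71 ± 0.307 in Tut7-/- cells (adjusted p = 0.00016). With the length and GC offsets its changes were 0.17 and -0.08 and neither passed (adjusted p = 0.54 and 0.79), nor did they with GC content alone. Zbtb21 completed the 9, with log2 changes of 1.42 and 1.48 in wild-type and Tut7-/- cells. With both offsets they were 1.13 (adjusted p = 9.3e-05) and 0.34 (adjusted p = 0.12).

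Of the falls, that of Zbtb16 (PLZF, the factor of innate-like T cells) was complete at this depth in wild-type cells, with 18 and 77 counts untreated and 0 and 0 after LPS. Against a floor of 3 counts over the 2 LPS libraries it was at least 11.8-fold lower. In Tut7-/- BMDMs it went from 19 and 58 to 1 and 0 counts, a ratio of 53.9 with an exact 95% counting interval of 9.4 to 2157. The gene entered the tested set through the untreated libraries, so these values too are a description. Zbtb4 fell from 51.5 and 79 to 14.1 and 10.2 CPM in wild-type (-2.41 ± 0.282, adjusted p = 3e-06) and from 93.4 and 106 to 19.1 and 16.6 CPM in Tut7-/- cells (-2.48 ± 0.265, adjusted p = 8.2e-07). Zbtb4 passed under all alternatives in both genotypes. Zbtb25, described as a repressor of NFAT targets in human T cells, fell from 5.72 and 3.42 to 1.31 and 0.328 CPM in wild-type (-2.31 ± 0.596, adjusted p = 0.0039) and from 3.56 and 2.66 to 1.27 and 1.37 CPM in Tut7-/- cells (-1.21 ± 0.505, adjusted p = 0.044). The other falls called in both genotypes were those of Zbtb22, Zbtb42 and Zbtb48, a telomere-binding protein in human cells, with log2 changes of -0.77, -0.84 and -1.18 in wild-type cells, and of -1.60, -1.59 and -1.63 in Tut7-/- cells. With the length and GC offsets none of the 3 passed in wild-type cells (-0.13, -0.23 and -0.63, adjusted p = 0.51, 0.37 and 0.17). In Tut7-/- cells Zbtb22 and Zbtb42 did, at -0.57 and -0.69 (adjusted p = 0.0043 and 0.0048), and Zbtb48 did not, at -0.70 (adjusted p = 0.071).

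Zbtb14, Zbtb34, Zbtb44 and Zbtb1 fell in wild-type BMDMs and were not called in Tut7-/- BMDMs. Zbtb14 went from 18.3 and 24.2 to 3.26 and 4.26 CPM in wild-type (-2.52 ± 0.365, adjusted p = 2.7e-05) and from 8.24 and 13.5 to 7.91 and 7.14 CPM in Tut7-/- cells (-0.54 ± 0.314). Zbtb44 went from 25.6 and 20.8 to 5.44 and 7.21 CPM (-1.89 ± 0.413, adjusted p = 0.0011) and from 4.79 and 12.8 to 6.8 and 4.94 CPM (-0.62 ± 0.398). Zbtb34 went from 28.7 and 30.1 to 9.57 and 8.19 CPM (-1.71 ± 0.399, adjusted p = 0.0019) and from 6.76 and 20 to 17.1 and 16.9 CPM (0.32 ± 0.366). Zbtb1 went from 14.2 and 11.7 to 7.4 and 3.28 CPM (-1.22 ± 0.419, adjusted p = 0.022) and from 3.07 and 7.17 to 9.17 and 8.24 CPM (0.73 ± 0.395). For each of the 4 the wild-type groups were apart, and the untreated Tut7-/- libraries lay below both untreated wild-type libraries. Untreated Tut7-/- replicate 2 lay above all treated libraries for Zbtb14, Zbtb44 and Zbtb34, at 13.5, 12.8 and 20 CPM. Zbtb7b, Zbtb9, Zbtb17 and Zbtb45 fell and Zbtb43 rose in Tut7-/- cells alone by this threshold, with log2 changes of -1.17, -0.81, -0.64, -0.83 and 0.77. With the length and GC offsets all 4 of the first group fell in Tut7-/- cells too, by -2.66 for Zbtb44, -1.66 for Zbtb14, -0.92 for Zbtb1 and -0.57 for Zbtb34, and Zbtb7b and Zbtb45 were at -0.23 and 0.31. Zbtb43 was at 0.31 with both offsets (adjusted p = 0.17) and did not pass in 12 of 19 alternatives, Zbtb9 was at -0.62 (adjusted p = 0.023) and Zbtb17 at 0.31. A call in 1 genotype does not show a difference between them, which is tested next.

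**Figure D5:**
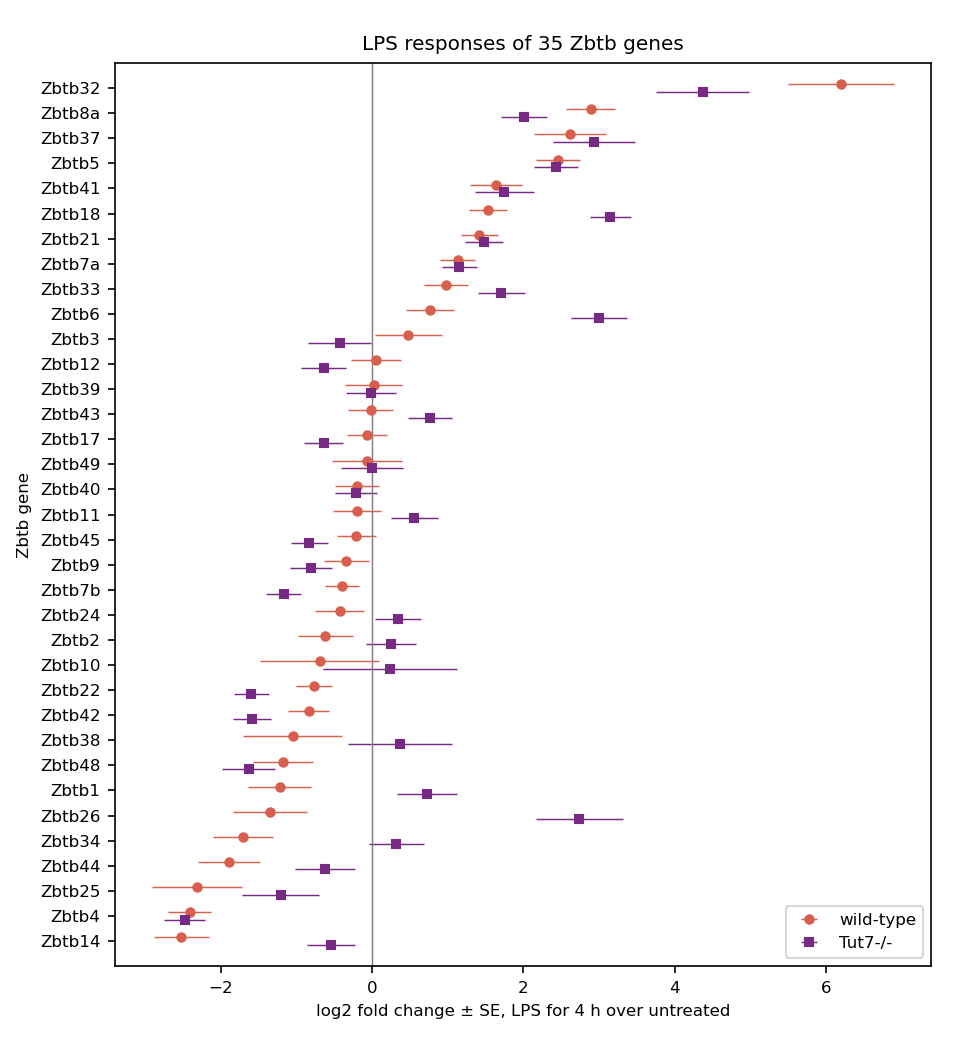
Log2 change with LPS for 4 h (± standard error) in wild-type (circles) and Tut7-/- (squares) BMDMs for 35 Zbtb genes, ordered by the wild-type change, without Zbtb16, which had no counts in LPS-treated wild-type cells. Zbtb32 is at the top in both genotypes, and Zbtb26 falls in wild-type and rises in Tut7-/- cells.

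The LPS response itself differed between the genotypes for 3 of the 34 members, all with the higher log2 change in Tut7-/- BMDMs, where 4.06% of all genes had a higher and 0.435% a lower change. Zbtb18 differed by 1.62 ± 0.359 (adjusted p = 0.024, edgeR), Zbtb14 by 1.98 ± 0.487 (adjusted p = 0.037) and Zbtb34 by 2.04 ± 0.542 (adjusted p = 0.048). Zbtb18 rose in both genotypes, more so in Tut7-/- cells, where it started lower. Zbtb14 and Zbtb34 fell in wild-type cells only by the threshold and had starting levels in Tut7-/- cells between those of untreated and treated wild-type cells on average. The same 3 genes were among the 9 lower in untreated Tut7-/- cells, and the 2 results share those libraries. For Zbtb6 and Zbtb26, given without a test, the responses differed by 2.23 ± 0.483 and 4.09 ± 0.755, and by 1.32 ± 0.365 and 3.12 ± 0.672 with the length and GC offsets. The GC contents of Zbtb18, Zbtb14 and Zbtb34 were 43.1%, 45.0% and 47.1%, and over all genes 95.3% of those with a higher change were below the median GC content. With both offsets the differences were 0.71, 1.21 and 1.37 and only that of Zbtb34 passed, and with GC content alone 0 of the 34 did in edgeR, with 3 at an unadjusted p under 0.05. The count was 0 without any 1 of untreated wild-type replicate 1 or 2, LPS-treated wild-type replicate 1 or 2 or LPS-treated Tut7-/- replicate 1 or 2, 3 without untreated Tut7-/- replicate 1 and 8 without its replicate 2. The share of all genes with a higher change was at most 0.513% in those 6 settings with a count of 0, 5.55% without untreated Tut7-/- replicate 1 and 21.6% without its replicate 2, beside 1.67% with both offsets and 0.0174% with GC content alone.

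By described role, the lymphocyte factors did not move as 1 group. ThPOK (Zbtb7b) was not called for LPS in wild-type BMDMs (72 and 84.2 CPM after LPS, log2 change -0.40 ± 0.228) and fell in Tut7-/- BMDMs to 80.5 and 99.9 CPM (-1.17 ± 0.226, adjusted p = 0.0003). MIZ-1 (Zbtb17) was at 21.2 and 21.1 CPM in untreated and 23.3 and 16.7 CPM in LPS-treated wild-type, and at 29.7 and 23.3 and at 16.5 and 17.6 CPM in Tut7-/- cells (-0.64 ± 0.257 with LPS, adjusted p = 0.038). That call has the opposite sign, 0.31, with the length and GC offsets. Zbtb24, mutated in a human immunodeficiency with DNA hypomethylation, was at 11.8 and 14.3, 7.4 and 12.5, 9.22 and 12.1, and 11.4 and 15.6 CPM in the 4 groups (wild-type untreated and treated, then Tut7-/-) and was not called in any comparison. Of the methyl-CpG binders, Zbtb4 fell with LPS in both genotypes and Zbtb33 rose in both, a call lost in both with the length and GC offsets. Zbtb38 was at 2.18 and 2.29 CPM in LPS-treated wild-type and 3.16 and 0.549 CPM in LPS-treated Tut7-/- cells, without a call for LPS. Zbtb20, the member described in macrophage TLR signalling, had 8 and 4, 3 and 7, 1 and 11, and 8 and 4 counts in the same order, too few to show a difference. Zbtb46 had 3 and 2, 1 and 1, 0 and 5, and 1 and 0 counts.

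The remaining tested members, Zbtb2, Zbtb3, Zbtb10, Zbtb12, Zbtb39, Zbtb40 and Zbtb49, passed in none of the 5 comparisons, nor did Zbtb24. Zbtb39, Zbtb40 and Zbtb49 had LPS changes between -0.21 and 0.02 on the log2 scale in both genotypes. Zbtb10 was detected with 0 to 20 counts per library. Zbtb12 was at 12.8 and 9.48 CPM in untreated Tut7-/- and at 6.38 and 7.36 CPM in untreated wild-type cells, and did not pass the threshold (0.68 ± 0.292, adjusted p = 0.075).

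Genes of the same protein family under other symbols, and partners of the BTB domain, were counted in the same way. Over all genes 27.0% rose and 30.4% fell with LPS in wild-type, and 34.8% rose and 33.2% fell in Tut7-/- BMDMs. Untreated, 22.2% of all genes were lower and 14.8% higher in Tut7-/- BMDMs. The lists are small, and a departure from these shares was not tested. Of 8 such ZBTB genes 6 were tested, of which 3 rose (Bcl6, Mynn and Zfp131) and 2 fell (Patz1 and Gzf1) with LPS in wild-type, and 3 rose and 1 fell in Tut7-/- BMDMs. Bcl6, a repressor of inflammatory genes in macrophages, went from 79.3 and 89.9 to 250 and 198 CPM in wild-type (1.41 ± 0.26, adjusted p = 0.00028) and from 67.2 and 123 to 248 and 252 CPM in Tut7-/- cells (1.39 ± 0.259, adjusted p = 0.00021). Untreated, 3 of the 6 were lower in Tut7-/- cells (Mynn, Zfp131 and Gzf1, with GC contents of 41.7%, 39.4% and 47.4%) and 0 higher. All 16 partners were tested: 5 rose and 5 fell with LPS in wild-type, and 4 rose and 7 fell in Tut7-/- cells. The class IIa histone deacetylase gene Hdac5 fell from 113 and 154 to 5.44 and 6.55 CPM in wild-type (-4.49 ± 0.3, adjusted p = 5e-09) and from 251 and 205 to 8.23 and 5.49 CPM in Tut7-/- cells (-5.06 ± 0.288, adjusted p = 7.3e-10). Hdac1 rose in both genotypes, with log2 changes of 1.62 in wild-type and 1.88 in Tut7-/- cells. Untreated, 3 partners were lower in Tut7-/- cells (Ncor1, Hdac2 and Cul3, GC 38.5% to 47.8%) and 3 higher (Ctbp1, Hdac5 and Bcorl1, GC 55.4% to 60.9%). Between the genotypes after LPS 0 of either list passed in edgeR, with 0 of the 6 and 1 of the 16 at an unadjusted p under 0.05. Over all genes 0.626% were higher and 0.774% lower, and 12.9% had an unadjusted p under 0.05. In the difference of the LPS responses 0 passed as well, with 3 of the 6 and 5 of the 16 at an unadjusted p under 0.05. Over all genes 4.06% had a higher and 0.435% a lower change, and 23.5% an unadjusted p under 0.05. The DESeq2 values of these lists were not read out.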

How the data were processed

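Poly(A) RNA of 8 BMDM libraries was sequenced by the authors on an Illumina HiSeq and mapped with FANSe3 to mouse RefSeq RNA (mm10). The deposited table held raw read counts per gene symbol, and the authors also deposited RPKM values, which were used here for levels between genes and for the transcript length they imply. The submitters' processing notes name edgeR without a version. The count test was edgeR 4.0.16 in R 4.3.3 (quasi-likelihood, robust, TMM scaling, filterByExpr) on all 8 libraries in 1 model. This left 4 residual degrees of freedom, and the biological coefficient of variation was 18.5%. Adjusted p-values are Benjamini-Hochberg over 11501 genes, and a call is an adjusted p under 0.05. A group of 2 libraries limits the precision, and so do the 3767900 to 9394632 counts per library. For 2 against 2 libraries the smallest two-sided p of an exact permutation test is 0.33. Statements that groups did not overlap are therefore descriptions, and the share of all genes without overlap was not computed for any comparison.

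Counts of members are over the 34 tested members other than Zbtb6 and Zbtb26. Named with the value in each library are those 2, all members called in a genotype comparison or in the difference of the LPS responses, the 6 largest rises and falls with LPS in wild-type cells, and members with a described role in blood or immune cells or in methyl-CpG binding. Members and gene lists were chosen with earlier results of these data known. GC content came from GENCODE vM21 transcripts (GRCm38), known for 99.4% of tested genes, and coordinates and promoters from RefSeq GRCm38.p6. Offsets were splines with 5 degrees of freedom of length and GC content in each library. The test was checked on simulated counts. Alternatives were other scalings and filters, DESeq2 1.42.0, fewer libraries, the replicate number as a block, the offsets, and each library left out. Values of 1 partner gene are not reported here. No cause was weighed.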

Additional observations from a re-analysis of the deposited data

Results flagged for a closer look

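The LPS response differed between the genotypes, by the test of the difference itself in edgeR, for 3 of the 34 members. Of all genes, 4.06% had a higher and 0.435% a lower change. The difference in log2 change, Tut7-/- minus wild-type, was 1.62 for Zbtb18, 2.04 for Zbtb34 and 1.98 for Zbtb14, with adjusted p-values of 0.024, 0.048 and 0.037. With the length and GC offsets these were 0.71, 1.37 and 1.21 (adjusted p = 0.1, 0.036 and 0.1, edgeR). With GC offsets alone 0 of the 34 passed. The calls also depended on single libraries, as given above. Libraries with and without LPS did not overlap for Zbtb18 and Zbtb14 in both genotypes and for Zbtb34 in wild-type cells. Zbtb14 was lower after LPS in both, at 7.91 and 7.14 against 8.24 and 13.5 CPM in Tut7-/- cells.

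Zbtb1 and Zbtb26 moved in opposite directions in all libraries of the 2 genotypes. The share of all genes that did so was not computed, so this describes the values only. Tested genes within 1 percentage point of the GC content of either gene had a median difference in log2 change of 0.97. Zbtb1 was at -1.22 in wild-type and 0.73 in Tut7-/- cells on the log2 scale, and the difference had an adjusted p of 0.062 in edgeR. With the length and GC offsets it was at -1.92 and -0.92, the same direction in both. Zbtb26 was at -1.35 in wild-type and 2.74 in Tut7-/- cells, and at -2.17 and 0.95 with the offsets, and the difference was not tested because the gene was singled out with these results known. All 5 genes have GC contents under the median of all tested genes, and the part of the GC trend of the untreated Tut7-/- libraries in these differences was not tested beyond the offsets. With groups of 2, no library could be compared with the rest of its group.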

How the results depend on the processing

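Counts are given as higher and lower among the 34 members. Percentages in brackets are the shares of all genes called in the same direction and setting. With LPS in wild-type cells, scaling by library size gave 5 and 21 (15.3% and 57.3%). The main values were 9 and 10 (27.0% and 30.4%), and other settings stayed within 1.5 times. With LPS in Tut7-/- cells, the length and GC offsets gave 6 higher, also with the replicate block (30.5% in both settings). Between untreated genotypes (4 and 9), the count higher was 1 with library size (2.8%) and 1 with only the 4 libraries compared (4.94%). It was 0 with GC offsets alone (5.5%) and 10 with length offsets alone (26.7%). The count lower was 2 with both offsets (9.63%), 1 with the replicate block added (9.55%) and 0 with GC offsets alone (5.34%). After LPS (0 and 0), the count higher was 2 with only the 4 libraries compared (5.35%). It was 1 without both untreated Tut7-/- libraries (1.97%) and 1 with both offsets (2.09%). The count lower was 1 without a filter (1.25%), 2 with only the 4 libraries (9.56%) and 1 without both untreated Tut7-/- libraries (4.26%). For the difference of the responses (3 and 0), the count higher was 1 with DESeq2 size factors (1.65%). It was also 1 with at least 10 counts in every library (26 members tested, 1.75%). It was 1 with both offsets (1.67%), 1 with the replicate block added (1.52%) and 0 with GC offsets alone (0.0174%). The count lower was 3 with length offsets alone (6.47%). The offsets for GC content alone and length alone were chosen after seeing the data. The causes were not tested.

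Leaving out each library in turn gave 8 to 9 and 7 to 11 for LPS in wild-type cells, 9 to 13 and 6 to 11 for LPS in Tut7-/- cells (6 without LPS-treated Tut7-/- replicate 1), 0 to 7 and 3 to 11 between untreated genotypes, 0 to 1 and 0 to 1 after LPS, and 0 to 8 and 0 to 2 for the difference.

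Among called members and Zbtb6, signs changed as follows on the log2 scale. Zbtb6 with LPS in wild-type cells was at -0.07 with library size and 0.00 with both offsets and the block. With LPS in Tut7-/- cells, with both offsets, with the block added and, where given, with GC offsets alone, Zbtb17 was at 0.31, 0.32 and 0.31, Zbtb45 at 0.31, 0.31 and 0.26, Zbtb33 at -0.08 and -0.06, and Zbtb41 at -0.14 and -0.15. Between untreated genotypes Zbtb11 was at 0.14, 0.16 and 0.02, Zbtb41 at 0.05 and 0.07, and Zbtb44 at 0.05 and 0.03. Among members not called, Zbtb11, Zbtb1 and Zbtb34 went with both offsets from 0.56, 0.73 and 0.32 to -1.02, -0.92 and -0.57 with LPS in Tut7-/- cells (adjusted p = 0.0038, 0.014 and 0.033, edgeR). Over all alternatives the untreated difference ran from -4.49 to -2.24 for Zbtb26 and from -3.07 to -1.55 for Zbtb6. No member called between untreated genotypes or in the difference passed under all alternatives that tested it, while 11 of 19 did for LPS in wild-type and 9 of 20 in Tut7-/- cells, counting Zbtb16, Zbtb32, Zbtb37 and, in wild-type, Zbtb25, which the filter of at least 10 counts left out. Of these, Zbtb16 and Zbtb32 entered the tested set through the group where they were high, so their passes are a description.

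Same-numbered libraries correlated at -0.198 to 0.310 in their deviations from the group means, so the numbers were not taken to pair them. The replicate block alone gave the same counts in all 5 comparisons (9 and 10, 10 and 10, 4 and 9, 0 and 0, 3 and 0). Calls of low members rest on few counts.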
